A study of Mus musculus with 6 samples.

Results

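Imprinted genes are the subject here, a set of 38 named genes of 19 chromosomal regions whose transcription depends on the parent from which the copy was inherited. They were looked up by gene name in the GENCODE M1 annotation of the mm9 mouse genome, which holds 37273 genes on the chromosomes of the peak list. Of the 38 names, 37 were found, and Kcnq1ot1, an antisense long non-coding RNA, had no entry of that name. A gene was called Dppa2-bound when the midpoint of a V5-Dppa2 peak lay within 1000 bp of the transcription start site (TSS) of any of its transcripts. By this rule 6 imprinted genes were bound: Dlk1, Dio3, H19, Ndn, Ascl2 and Gnas. The other 31 were not, and their nearest peak midpoint lay between 5.00 kb and 836 kb away.

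The peaks come from an anti-V5 chromatin immunoprecipitation (ChIP) followed by sequencing, done on CGR8 cells, a mouse embryonic stem cell (ESC) line grown in serum and LIF without feeders. The cells stably carried Dppa2 with a V5 tag at its N-terminus, expressed from a pPyCAG vector after puromycin selection, next to their own Dppa2. The parental CGR8 line, which has no V5 tag, gave the control ChIP. Each condition is 1 library, so no value below has a replicate error. Whether the tagged cells were 1 clone is not given in the sources used here, and the level of tagged protein was not analysed here. The list holds 3336 peaks, and 3281 of them, or 98.4%, had their midpoint within 1000 bp of a TSS. It is therefore a list of peaks at start sites, and binding at intergenic imprinting control regions was not analysed here. The sequencing depth is unknown from a peak list.

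At an imprinted gene the maternal and paternal copies share their sequence but differ in DNA methylation. The difference is laid down in the germ line at CpG-rich stretches, the germline differentially methylated regions (DMRs), and is kept after fertilization by the methyltransferase Dnmt1 and by factors such as Zfp57 and Trim28. At many imprinted genes, among them Peg3, Snrpn, Mest, Peg10 and Plagl1, the germline DMR covers a start site and is methylated on the maternal copy. In other regions, such as H19-Igf2 and Dlk1-Dio3, it lies between genes and is methylated on the paternal copy. Dppa2 is a protein of the early embryo, the germ line and ESCs with a SAP domain, a type of DNA-binding domain. The peak list does not tell the parental copies apart.

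For each of the 6 bound genes, the stretch of 150 bases with the most CpG dinucleotides inside the peak is shown, because imprints are laid down at CpG-rich stretches. Whether the CpGs shown differ in methylation between the parental copies was not analysed here. Bases annotated as UTR were left out of the choice. The same was done for a peak near Rtl1, whose midpoint is nearest to Mir136. All stretches are from the plus strand of mm9, and the capitals mark CpGs. They lie at chr12:110691505-110691654 for Dlk1, chr12:111516682-111516831 for Dio3, chr7:149762714-149762863 for H19, chr7:69493338-69493487 for Ndn, chr7:150154167-150154316 for Ascl2, chr2:174110492-174110641 for Gnas and chr12:110833446-110833595 for Mir136.
Dlk1: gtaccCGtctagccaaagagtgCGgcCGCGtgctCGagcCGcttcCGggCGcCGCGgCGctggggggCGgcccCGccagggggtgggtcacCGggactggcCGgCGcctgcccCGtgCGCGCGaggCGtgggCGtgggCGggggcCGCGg
Dio3: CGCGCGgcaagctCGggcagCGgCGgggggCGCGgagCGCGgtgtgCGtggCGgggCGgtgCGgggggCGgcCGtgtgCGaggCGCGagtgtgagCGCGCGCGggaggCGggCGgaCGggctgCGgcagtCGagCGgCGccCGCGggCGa
H19: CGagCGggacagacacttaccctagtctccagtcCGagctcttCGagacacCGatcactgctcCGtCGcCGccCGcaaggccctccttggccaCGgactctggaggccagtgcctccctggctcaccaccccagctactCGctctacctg
Ndn: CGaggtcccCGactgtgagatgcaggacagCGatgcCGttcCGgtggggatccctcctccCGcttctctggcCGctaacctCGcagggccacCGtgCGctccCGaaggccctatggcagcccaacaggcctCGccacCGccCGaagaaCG
Ascl2: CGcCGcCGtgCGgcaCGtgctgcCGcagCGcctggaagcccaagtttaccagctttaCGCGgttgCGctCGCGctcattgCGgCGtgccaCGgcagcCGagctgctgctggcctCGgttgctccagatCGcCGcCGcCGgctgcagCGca
Gnas: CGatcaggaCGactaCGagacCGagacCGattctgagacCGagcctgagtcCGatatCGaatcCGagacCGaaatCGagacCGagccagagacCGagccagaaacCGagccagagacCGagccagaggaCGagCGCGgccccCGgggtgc
Mir136: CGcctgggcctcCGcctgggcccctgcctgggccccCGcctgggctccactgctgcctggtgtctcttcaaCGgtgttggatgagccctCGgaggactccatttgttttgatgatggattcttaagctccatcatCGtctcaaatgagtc
The stretch of Dio3 held 33 CpGs, that of Dlk1 25, of Ascl2 22, of Gnas 19, of Ndn 15 and of H19 11. The one at Mir136 held 6, the fewest of these 7 stretches.

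**Figure D1:**
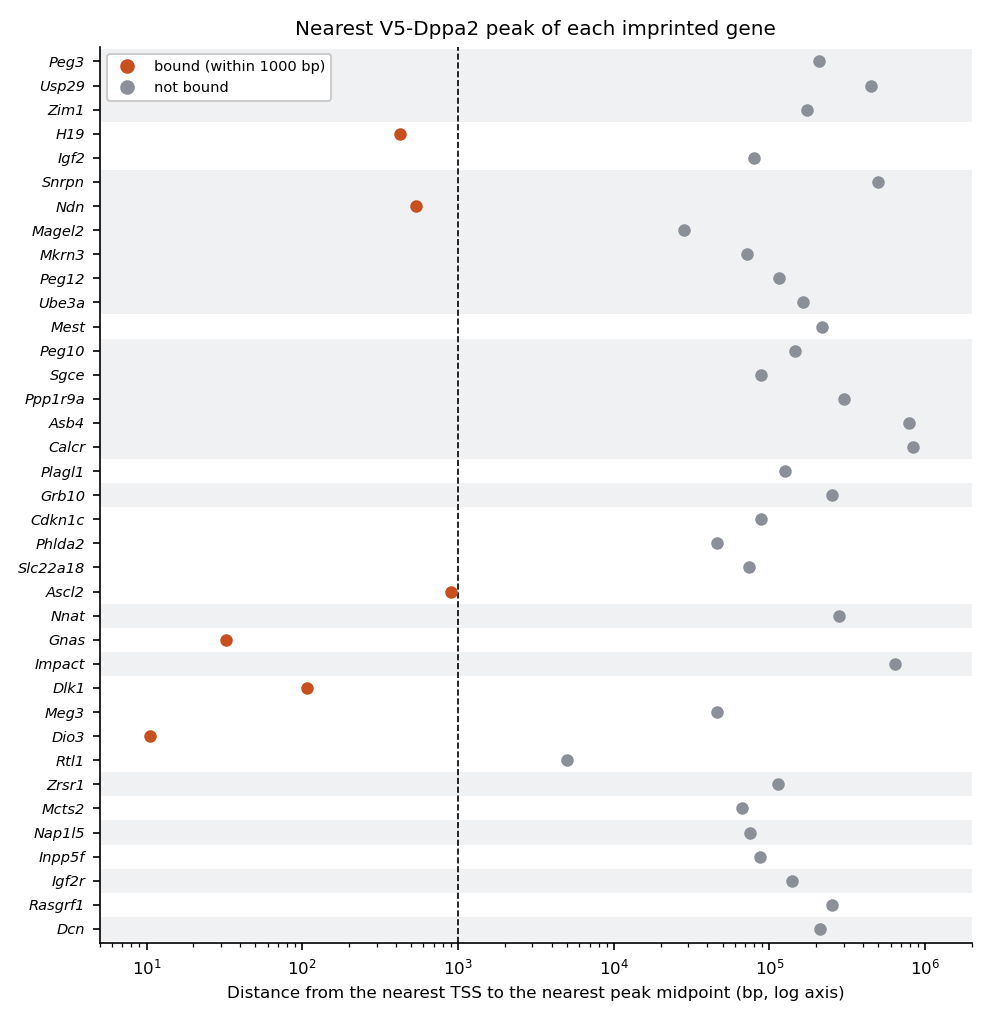
Distance in bp, on a log axis, from the nearest TSS of each of the 37 imprinted genes to the nearest V5-Dppa2 peak midpoint in 1 library; shading separates neighbouring imprinted regions, and the dashed line marks 1000 bp. The 6 bound genes lie between 10.5 and 906 bp, then a gap follows up to Rtl1 at 5.00 kb, and 27 of the 31 unbound genes lie beyond 50 kb. The list holds almost only peaks centred within 1000 bp of some TSS.

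Dlk1 encodes a transmembrane protein with EGF repeats and is expressed from the paternal copy. Its peak had the highest score of the 6, where the score comes from peak calling and equals -10 times the log10 of the p-value that MACS gave a peak. The peak spans 110690717 to 110692399 on chromosome 12, which is 1683 bp, with a score of 329 and rank 943 among the 3336 peaks. Its midpoint lay 107 bp upstream of the nearest of 9 annotated TSSs, in an intron of a transcript that starts further upstream. The peak covered 7 of the 9 TSSs.

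Dio3, at the other end of the same region, encodes a deiodinase that inactivates thyroid hormone and is also expressed mainly from the paternal copy. Its peak spans 111516491 to 111518044 on chromosome 12, or 1554 bp, and was centred 10.5 bp upstream of a TSS, closer than any other of the 6. The score was 134, with rank 2821. This peak had the highest GC content of the 6, 70.8%, and the highest ratio of observed to expected CpGs, 0.924. The starts of Mir1247 and of the antisense lincRNA Dio3os lay 928.5 and 989.5 bp from the same midpoint, so that the peak counts for these genes too.

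H19 is a maternally expressed long non-coding RNA, and it was the only non-coding gene among the 6. The peak spans 149762434 to 149764049 on chromosome 7 and takes up 1616 bp of a gene annotated from 149761434 to 149764048 on the minus strand. It ends 1 bp beyond the outermost TSS and covers all 5 annotated TSSs of H19. The midpoint lay 426.5 bp upstream of the nearest TSS and 806.5 bp downstream of the outermost one, in an exon. The peak therefore extends over the transcribed part rather than over the sequence before the gene. Mir675, the microRNA made from H19, starts 189.5 bp from the midpoint, which makes it the nearest gene. The score was 203, with rank 1942, and the CpG ratio of 0.365 was the lowest of the 6. Igf2, the paternally expressed growth factor gene of this region, had its nearest TSS 80.1 kb from the midpoint of this same peak.

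Ndn encodes necdin, a protein of the MAGE family expressed from the paternal copy, and has no intron. Its peak on chromosome 7 spans 69493045 to 69494351, or 1307 bp, the narrowest of the 6. The midpoint was in the coding sequence, 535 bp past the single TSS, with a score of 181 and rank 2180. Ascl2, a maternally expressed transcription factor gene of the trophoblast, had the weakest peak of the 6. It spans 150153031 to 150155495 on chromosome 7, or 2465 bp, with a score of 113 and rank 3126, near the authors' lower limit. The midpoint fell in the coding sequence, 906 bp past the TSS, so that of all 37 genes Ascl2 was nearest to the limit of 1000 bp from inside. Nearest from outside was Rtl1, at 5.00 kb.

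Gnas encodes the alpha subunit of the stimulatory G protein and, from alternative start sites, several other transcripts of differing parental origin. The annotation gives it 16 TSSs, more than any other gene of the 37. The peak spans 174109421 to 174112028 on chromosome 2, at 2608 bp the widest of the 6, with a score of 191 and rank 2085. It covered the 3 most upstream TSSs, and the midpoint lay 32.5 bp upstream of the nearest of them, in a coding exon. The TSS shared by most transcripts, 6 of 22, lay further downstream, with the midpoint at -12635.5 bp relative to it, and from the next groups of start sites the midpoint was at -42346.5 bp or beyond. No peak lay within 1000 bp of any of these. The nearest of the 3 annotated starts of Nespas, an antisense lincRNA, was 211.5 bp from the midpoint, so that the upstream peak counts for both genes. The most upstream start site makes the transcript Nesp from the maternal copy. As background, its methylation is not of germline origin, unlike that at some of the start sites further downstream.

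**Figure D2:**
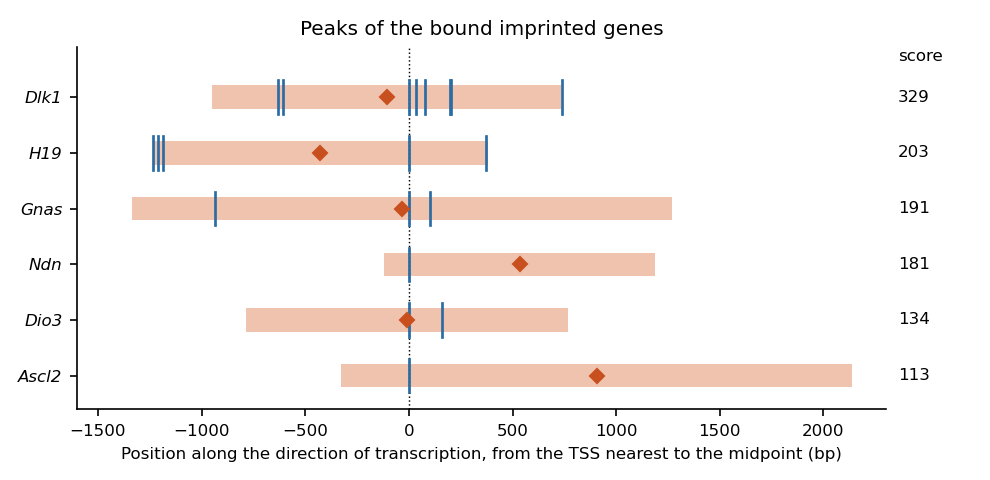
Peaks of the 6 bound imprinted genes in bp along the direction of transcription, with 0 at the TSS nearest to the midpoint; bars are peaks, diamonds midpoints, blue ticks annotated TSSs in the plotted range, and the score stands at the right. The midpoints of Dio3 and Gnas lie 10.5 and 32.5 bp from a TSS, those of Ndn and Ascl2 lie inside the gene, and the peak of H19 reaches from 1 group of TSSs to the other.

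The 6 peaks were of ordinary shape and composition for this list. Their widths ran from 1307 to 2608 bp with a median of 1650 bp, against 1433 bp for all peaks. Their CpG ratios had a median of 0.709 and their GC contents one of 61.3%, against 0.713 and 62.0%. All 6 contained a TSS of the gene. The midpoint was upstream of the nearest TSS in 4 and downstream in 2, with a median of -21.5 bp, while the median of all peaks was 127 bp downstream. Of those 4, only the midpoint of Dio3 lay upstream of the gene, while those of H19, Gnas and Dlk1 lay inside it, past a more upstream TSS. With 1 TSS per gene the median was 535 bp over 5 peaks. The scores had a median of 186 against 228 for all peaks, and only Dlk1, of the 6, was above the latter. At a score of at least 200, which 1977 peaks reached, Dlk1 and H19 were left as bound, 2 of 37, where 8.06% of protein-coding genes and 5.97% of all genes were bound. In none of the 6 peaks did a 36-base word, the length of the alignment seed, occur a second time in mm9.

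The bound share of the imprinted genes was close to that of genes in general. Of the 35 protein-coding ones 5 were bound, or 14.3% (95% exact interval 4.81 to 30.3%, by the method of Clopper and Pearson), and 14.2% of all 22367 protein-coding genes were. H19 is a processed transcript in the annotation, a type with 6.07% bound, and Meg3, which was not bound, a lincRNA, a type with 12.3%. Over all 37 the share was 16.2% (95% exact interval 6.19 to 32.0%), with 10.2% of the 37273 genes of all types bound. All intervals given cover counting error only, and genes of 1 region share a chromosomal neighbourhood and are not independent. As the list was drawn up with earlier results of these data known, no test was run on it.

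CpG content was taken as the ratio of observed to expected CpGs over 1000 bp around 1 TSS per gene, the one shared by most transcripts. Among other protein-coding genes the bound share rose with it in every decile, from 0.716% in the lowest to 34.9% in the highest. When each imprinted gene was set against other genes of its type and decile, the mean bound share of those genes was 17.2%, beside 16.2% for the imprinted genes themselves. The protein-coding imprinted genes of the lower 5 deciles, among them Igf2, Snrpn, Mest and Impact, held no bound gene. In deciles 6 and 7 Ascl2, Gnas and Ndn were bound, and in decile 9 Dlk1 and Dio3. In the highest decile none was bound of Grb10, Igf2r, Mcts2 and Ube3a, where 34.9% of other genes were. The 31 unbound genes were not CpG-poor as a whole, since 17 of them exceeded the median CpG ratio of the bound ones, 0.649. For genes with several start sites the chosen TSS need not be the one in a CpG island. Mest had a ratio of 0.205 there and 0.789 at its richest TSS, and Igf2 had 0.0608 and 0.821. By the richest TSS both genes were in decile 8. With the richest TSS of each gene the matched share was 18.9%.

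**Figure D3:**
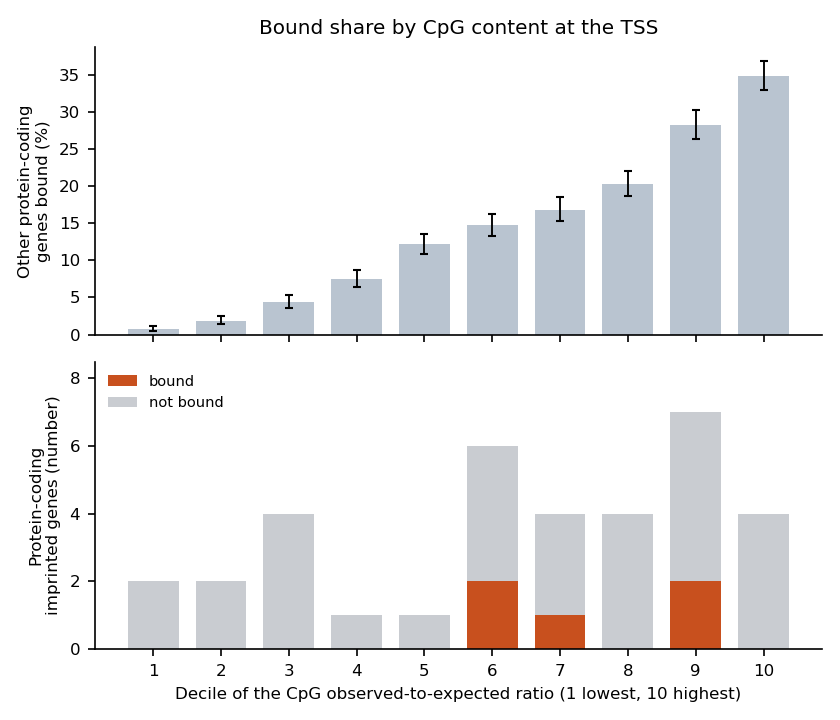
Upper panel, percent of other protein-coding genes bound in each decile of the CpG observed-to-expected ratio at the TSS, with 95% exact binomial intervals; lower panel, number of protein-coding imprinted genes in the same deciles. The share rises from 0.716% to 34.9%, and the 5 bound imprinted genes lie in deciles 6, 7 and 9.

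Imprinted genes with a germline DMR at a start site had 1 bound member of 15, or 6.67% (95% exact interval 0.169 to 31.9%), beside 17.0% in genes of the same type and CpG decile. The 1 bound gene was Gnas, with its peak at the upstream start sites described above. With 1 TSS per gene none of the 15 was bound. The 14 unbound genes were Peg3, Usp29, Snrpn, Mest, Peg10, Sgce, Plagl1, Grb10, Nnat, Impact, Zrsr1, Mcts2, Nap1l5 and Inpp5f. Usp29 was placed in this class with Peg3, but its single annotated TSS is at 6913871 on chromosome 7. The TSS of most Peg3 transcripts is far from it, at 6683130, so the call of Usp29 does not cover a start site at that DMR. Of the remaining 22 genes, 5 were bound, or 22.7% (95% exact interval 7.82 to 45.4%), beside 17.4% in comparable genes. The 2 intervals overlap, and the difference was not tested. With the richest TSS per gene, chosen after seeing the data, the matched shares were 20.1% for the 15 and 18.2% for the 22. Among the 7 genes of regions with an intergenic germline DMR 3 were bound, which were Dlk1, Dio3 and H19, or 42.9% (95% exact interval 9.9 to 81.6%), beside 15.8% in comparable genes. Another 14 genes, with the germline DMR elsewhere in their region, had 2 bound, or 14.3% (95% exact interval 1.78 to 42.8%), beside 19.1%. Dcn, which was not bound, is also among the 22 and was given no class. By parental origin, 3 of 22 paternally expressed genes were bound, or 13.6% (95% exact interval 2.91 to 34.9%), beside 16.9% in comparable genes. Of the maternally expressed ones 2 of 14 were, or 14.3% (95% exact interval 1.78 to 42.8%), beside 17.9%. Germline DMRs and parental origin were assigned from general knowledge and were not measured in these cells.

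Of the 19 regions, 13 held only 1 of the genes found, and 6 held several, 4 of them with a bound one. Among these 6, the Dlk1-Dio3 region on chromosome 12 was the only one with more than 1 of the 37 genes bound. Kcnq1 and Nap1l4, which are not among the 37, were bound besides Ascl2 in the Kcnq1ot1 region. From Dlk1 to Dio3 the Dlk1-Dio3 region spans 828 kb, and with 100 kb on either side it held 3 peaks. Besides those of Dlk1 and Dio3, the third spans 110832742 to 110834335 and had the highest score of the 3, 587, with rank 244. It lies within Rtl1, a paternally expressed gene derived from a retrotransposon and needed in the placenta, at 5.00 kb downstream of its TSS. On the opposite strand it covers the starts of the microRNA genes Mir432 and Mir136, which come from the maternal copy, and its midpoint is 11.5 bp from the start of Mir136. Its CpG ratio of 0.243 was below that of each of the 6 bound genes' peaks. Of its 36-base words 21.4% occur more than once in mm9, with up to 5 copies. The mature sequences of miR-136-5p and, for the H19 peak, of miR-675-5p follow from RefSeq on GRCm38.p6, with the seed, bases 2 to 8, in capitals.
mmu-miR-136-5p: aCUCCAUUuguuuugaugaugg
mmu-miR-675-5p: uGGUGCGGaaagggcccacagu
Meg3, the maternally expressed long non-coding RNA of the region, had 10 annotated TSSs, and the nearest peak midpoint was 46.1 kb from the closest of them. On chromosome 12 as a whole 21.0% of other protein-coding genes were bound.

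In the Snrpn-Ndn region on chromosome 7, which spans 3125 kb, Ndn was the only bound gene of 6. Its neighbours Magel2, another MAGE family gene, Mkrn3, a RING finger gene, and Peg12, an intronless gene of the Frat family, were 28.2, 71.3 and 116 kb from the midpoint of the Ndn peak. Ube3a, a ubiquitin ligase gene expressed from the maternal copy in neurons, was 165 kb and Snrpn, a spliceosomal protein gene, 500 kb from another peak. In the Kcnq1ot1 region Ascl2 was the only bound gene of 4. Cdkn1c, an inhibitor of cyclin-dependent kinases, Phlda2, which restrains growth of the placenta, and the transporter gene Slc22a18 were 87.9, 46.4 and 73.8 kb from the nearest midpoint, that of the Nap1l4 peak. The gene Kcnq1, in which the antisense Kcnq1ot1 arises, had a peak at its own promoter, 127 bp upstream of a TSS. Its score was 219, and the list held no other peak over the length of Kcnq1. Kcnq1ot1 had no entry of that name, and the list is one of peaks at start sites. Binding at the start of Kcnq1ot1 was therefore not analysed here. Chromosome 7 held 16 of the 37 genes with 3 bound, and 9.67% of its other protein-coding genes were bound.

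In 14 of the 19 regions none of the 37 imprinted genes was bound. Other genes of these regions are given below. The midpoint nearest to an imprinted gene of such a region lay from 66.9 kb at Mcts2 to 638 kb at Impact, with a median of 157 kb. In the Peg3 region the nearest was 174 kb from Zim1, at the olfactory receptor gene Olfr1349. In the Peg10 region it was 88.6 kb from Sgce, at Casd1, with a score of 571, and none of Peg10, Sgce, Ppp1r9a, Asb4 and Calcr was bound. The nearest midpoint to Mest was 217 kb away at Klf14. Plagl1, a zinc finger factor gene, was 126 kb from a peak at Stx11, Grb10, an adaptor of the insulin receptor, 253 kb from one at the lincRNA gene Gm11999, and Nnat, which encodes neuronatin, 281 kb from one at 4922505G16Rik. The retrogenes Zrsr1, Mcts2 and Nap1l5 were 114, 66.9 and 75.6 kb away from peaks at Gm12057, Cox4i2 and Herc3. Inpp5f, a phosphoinositide phosphatase gene, was 87.5 kb from a peak at Bag3, Igf2r, the receptor that clears Igf2, 140 kb from one at Pnldc1, and Rasgrf1, a guanine nucleotide exchange factor gene, 253 kb from one at Adamts7. The peak nearest to Dcn, a proteoglycan gene, was 211 kb away at 4921510H08Rik and, with a score of 1338 and rank 21, was the strongest of those nearest to a region. For comparison, the median distance was 140 kb over other protein-coding genes and 116 kb over the 35 protein-coding imprinted ones.

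Other genes of imprinted regions were examined from a list of 64 further symbols, of which 56 were found, 51 of them in the 19 regions and 5 in 3 further ones. Of these 12 were bound, or 21.4% (95% exact interval 11.6 to 34.4%), where genes of the same types and CpG deciles had 13.9%; the difference was not tested. In the 19 regions alone 10 of 51 were bound, or 19.6% (95% exact interval 9.82 to 33.1%), beside 13%. Herc3, in which Nap1l5 lies, had a peak 28.5 bp from a TSS with a score of 128. Casd1 next to Sgce had one of 571 and Klf14 beyond Mest one of 331. Slc22a3, from the region of Igf2r, had a score of 297, and Cobl, from that of Grb10, one of 256. Further out on the Ube3a side of the Snrpn-Ndn region, the GABA receptor gene Gabra5 and the phospholipid flippase gene Atp10a had scores of 619 and 268. Also bound were Kcnq1, Nap1l4 and Nespas and, in the further regions, Zdbf2 and Trappc9. Commd1, H13, Blcap, Copg2 and Airn, which overlap or adjoin Zrsr1, Mcts2, Nnat, Mest and Igf2r, were not bound. Parental origin was not analysed for the genes of this list, so it may hold imprinted genes as well.

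Of 27 genes that set, keep, read or erase methylation imprints, or act on them in the germ line, 7 were bound, or 25.9% (95% exact interval 11.1 to 46.3%), beside 18.0% in comparable genes. The highest score was that of Ctcfl, the germline paralogue of Ctcf, at 654 with rank 179 and a midpoint 0.5 bp from its TSS. Of 7 genes for histone methyltransferases, demethylases and their partners, Setdb1, Ehmt1, Kdm1a and Kdm1b were bound, with scores from 133 to 198, where 28.6% of comparable genes were. Of 5 genes of DNA demethylation, Tet2 and Tet3 were bound, with scores of 175 and 133, beside 19.5%. None of the 5 genes Dnmt1, Dnmt3a, Dnmt3b, Dnmt3l and Uhrf1 was bound, beside 13.9%, and none of the 4 germline regulators Prdm14, Nlrp2, Nlrp5 and Padi6, beside 4.45%. Of the 6 readers or protectors Ctcfl was bound, beside 17.1%, and not Zfp57, Trim28, Ctcf, Dppa3 or Yy1. At a score of at least 200 only Ctcfl of the 27 was left.

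**Figure D4:**
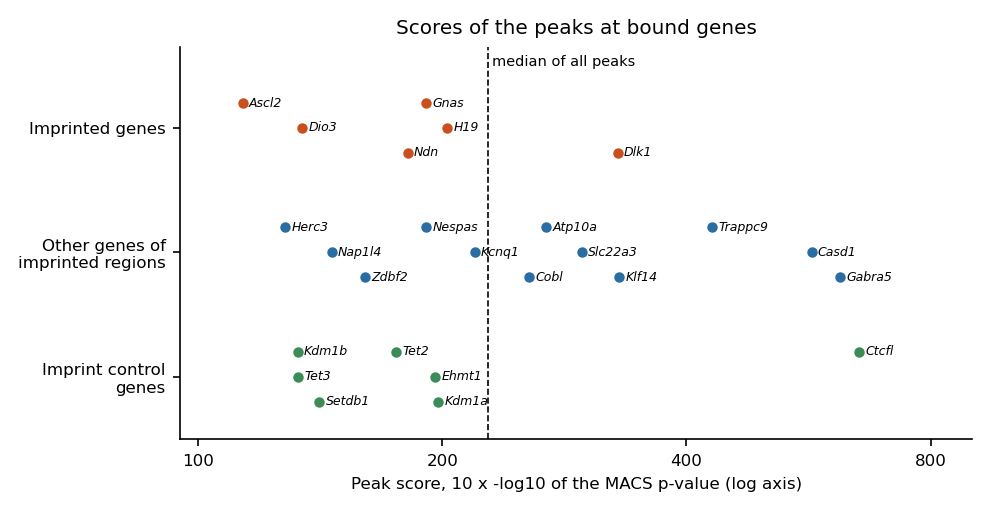
Score of the peak at each bound gene, -10 times the log10 of the p-value from MACS, on a log axis, for the 6 imprinted genes, the 12 other genes of imprinted regions, 10 of them in the 19 regions, and the 7 imprint control genes; points are single values of 1 library, shifted vertically for legibility. The dashed line is the median of all peaks, 228, above which lie Dlk1 among the imprinted genes and Ctcfl among the control genes.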

How the data were processed

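The ChIP of the V5-Dppa2 line was analysed through its peak list. The parental ChIP is the study's control, and how it entered peak calling was not checked. The other 5 samples, the control among them, were not analysed here. Before deposition the authors filtered out low-complexity reads with prinseq-lite, mapped the rest to mm9 with Bowtie 0.12.7, where only the best alignment of a read was kept, removed duplicates and called peaks with MACS 1.4.2 under limits on p-value and reads. Their processing notes also name Picard 1.81. The deposited score is -10 times the log10 of the p-value from MACS.

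Peak midpoints were set against all TSSs of GENCODE M1. Matched shares were means over the imprinted genes of the bound share of other genes in the same gene type and CpG decile. Shares carry exact Clopper-Pearson intervals at 95%; with 1 library no test was made. Bound calls were right for 600 of 600 placed peaks in simulated data. The genes and lists were chosen with earlier results of these data known, and 1 gene of the list of other genes is not reported here and was left out of its counts. All imprinted genes are named, of the other lists the bound ones, and of further genes those at peaks within 100 kb of a region; unbound genes of other lists and the genes nearest to more distant peaks were named after their values were seen. Python 3.11.15, pandas 2.3.3, scipy 1.17.1, numpy 2.4.6, matplotlib 3.10.9 and pysam 0.24.0 were used.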

Additional observations from a re-analysis of the deposited data

How the results depend on the processing

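No paired analysis was possible because the peaks of a single library were listed, and no replicate could be left out. A score of at least 200 admits fewer peaks and left 2 imprinted genes in 2 regions, 8 other genes of imprinted regions and 1 imprint control gene. The matched share was then 9.64%. The median distance from a region to its nearest peak was 194 kb, and the median midpoint position -267 bp over 2 peaks. A window of 500 bp left 4 imprinted genes, without Ndn and Ascl2, in 3 regions, with a matched share of 15.4%. With 98.4% of the listed peaks centred within 1000 bp of a TSS, wider windows could add few genes. Windows of 2000 and 5000 bp added no imprinted gene to the 6, though Rtl1, at 5001.5 bp, fell just outside the wider one. They gave matched shares of 17.8% and 18.7%, and any base of the peak gave 17.7%. With 1 TSS per gene Gnas was lost, the matched share was 16.7% and the median position 535 bp. With the TSSs of protein-coding transcripts alone H19 was lost, which left 5 imprinted genes in 4 regions and 11 other genes, with a matched share of 17.5%. The matched share was also 17.7% in quintiles, 16.9% in deciles of GC content, 19.6% with CpG content over 2000 bp, 17.8% on autosomes, 13.9% by gene type alone and 18.9% with the richest TSS, an alternative chosen after seeing the data. The unknown depth limits what an unbound gene shows, since weaker peaks were not listed.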

Other observations

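Within the Snrpn-Ndn region a second peak, from 66649013 to 66650172 on chromosome 7 with a score of 249, lay 165 kb from Ube3a. The nearest annotated start, 583.5 bp away, was that of a copy of SNORD115, a small nucleolar RNA made in many copies in this region, and no annotated gene overlapped the peak. Of its 36-base words 71.5% occur more than once in mm9, with up to 7912 copies, against none in the peaks of the 6 bound imprinted genes. The reads of the control ChIP over this interval were not analysed here.

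The letters bound by 3 factors with known roles at imprinted loci were searched on both strands in 1000 bp around each peak midpoint. TGCCGC, the hexamer read by Zfp57 when methylated, occurred in 4 of the 6 windows, with 4 matches at Ascl2, 2 at Gnas and 1 each at Dlk1 and Dio3, and in 61.5% of the windows of all peaks and 35.0% of those around the TSSs of protein-coding genes. A 14-letter form of the CTCF site was in none of the 6, in 2.1% of all peak windows and in 1.04% of the TSS windows. GCCATNTT, a form of the Yy1 site, was in none of the 6, in 13.8% and in 16.9%. These are matches of letters and say nothing of binding by these factors.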
